A study of Mus musculus with 2 samples.

Results

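The Ly6g-positive Ltf/Ngp-low cells, called members below, were the barcodes that carried Ly6g RNA but little RNA of the secondary granule genes Ltf and Ngp. They numbered 386 of the 21035 barcodes kept, 104 in the DMSO library and 282 in the DAB library. Members had 2 or more Ly6g UMIs (unique molecular identifiers, each standing for 1 captured RNA molecule), and fewer than 20 Ltf and Ngp UMIs together per 10000. They also had fewer than 2 Car4 UMIs and fewer than 20 Stfa1, Stfa2 and Stfa3 UMIs together per 10000. The choice thus used measured levels of these 7 genes, whose values in members are a description only. Because the working name of the population was neutrophils past the secondary granule stage, the defining markers Ly6g, S100a8, S100a9, Cxcr2 and Retnlg were checked in it first, and that name held only in part.

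The cells were bone marrow cells of 10-week-old female C57BL/6 mice, turned over 4 days of culture with the cytokines IL-6 (50 ng/mL) and GM-CSF (50 ng/mL) into myeloid-derived suppressor cells (MDSC). The DAB library came from cultures that held 1.5 µmol/L dabrafenib, an inhibitor of the kinase BRAF, and the DMSO library from cultures with the matching volume of solvent. Single-cell RNA was captured with a 10x Genomics droplet kit that reads the start of each transcript, and the number of mice behind each library was not given in the sources used here. There was 1 library per group, so treatment and library cannot be told apart, no difference between DAB and DMSO could be tested, and every interval below covers counting error only. The DMSO file held 9855 barcodes and 106792967 UMIs, and the DAB file 11631 barcodes and 165506902 UMIs.

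Neutrophils load their granules in an order that follows maturation. Primary granule proteases such as elastase (Elane) are made by promyelocytes, secondary granule proteins such as lactoferrin (Ltf), neutrophilic granule protein (Ngp) and cathelicidin (Camp) by the next stages, and gelatinase (Mmp9) later still. Late cells lose granule gene RNA and gain the receptors that bring them into tissue, such as Cxcr2. The calprotectin genes S100a8 and S100a9 are usually abundant from the secondary granule stage on. Ly6g encodes the surface protein by which mouse neutrophils are usually recognised, and the polymorphonuclear (PMN) type of MDSC is defined by it.

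Members made up 1.08% of the kept DMSO barcodes (exact Clopper-Pearson 95% interval 0.884% to 1.31%) and 2.47% of the kept DAB barcodes (2.19% to 2.77%), a log2 ratio of 1.19 (0.86 to 1.53). The thresholds worked differently in the libraries. Ly6g at 2 or more UMIs was met by 1734 DMSO and 1313 DAB barcodes, so the DAB library started with fewer. The limit on Ltf and Ngp left 718 and 904, the limit on Car4 left 114 and 374, and the limit on the stefins left 104 and 282. Of the barcodes that reached the Car4 step, 15.9% passed it in DMSO and 41.4% in DAB. These shares depend on the order of the steps. With the Car4 limit applied directly after Ly6g, 627 of 1734 DMSO and 652 of 1313 DAB barcodes passed it. Car4 encodes a membrane-bound carbonic anhydrase, and its median was 41 UMIs in the 581 DMSO barcodes that met the other 3 limits but not this one, and 19 UMIs in the 389 such DAB barcodes.

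**Figure D1:**
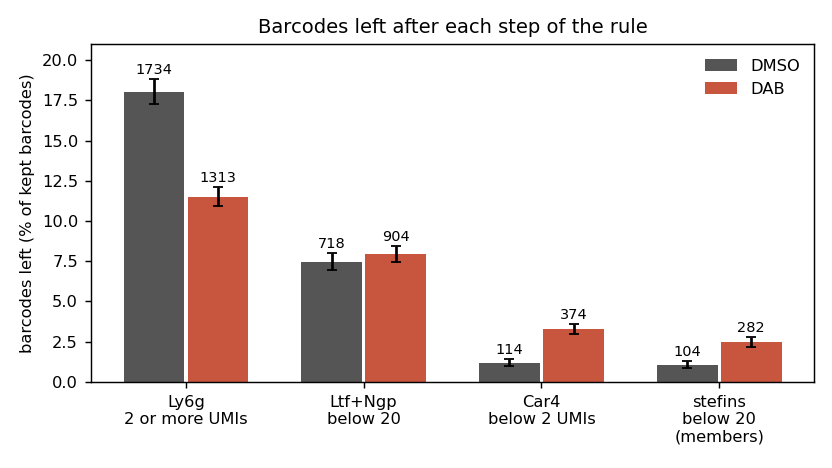
Barcodes left after each step of the rule, as a percentage of the kept barcodes of each library, with exact 95% intervals as error bars and the number of barcodes above them. DMSO starts with 1734 Ly6g-positive barcodes and ends with 104, DAB starts with 1313 and ends with 282.

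Just inside the Ly6g limit, 23 DMSO and 61 DAB members had 2 Ly6g UMIs and 18 and 40 had 3. Just outside it, 79 DMSO and 236 DAB barcodes met the rest of the rule with 1 UMI. Ltf and Ngp together reached 19.3 per 10000 in the highest member of either library, and the lowest barcode above the limit had 20.1 in DMSO and 21.1 in DAB. A single Car4 UMI was present in 25 DMSO and 40 DAB members, and 11 and 26 barcodes were left out with 2. The stefin sum reached 18.3 and 19.6 inside the limit and began at 26.1 and 20.4 outside it.

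Depth also differed between the libraries. The median DMSO member had 5221.5 UMIs and 1738.5 genes, and the median DAB member 11099.5 UMIs and 2761.5 genes, against 8337 and 10587 UMIs in all kept barcodes. When every barcode was thinned to 1000 UMIs before the rule was applied, 58 DMSO barcodes (0.603%, 0.458% to 0.779%) and 97 DAB barcodes (0.850%, 0.690% to 1.04%) met it, a log2 ratio of 0.50 (0.01 to 0.99). The part of depth in the larger DAB share was not tested further. A doublet score named 8 of the DMSO members (7.69%) and 33 of the DAB members (11.7%), against 7.70% and 9.13% of all kept barcodes. The files shared 152 barcode sequences, 2 of them among the DMSO members and 6 among the DAB members.

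The calprotectin genes split the members. S100a8 and S100a9 together stood at 100 or more per 10000 UMIs in 97 of 104 DMSO members (93.3%, 86.6% to 97.3%) and in 205 of 282 DAB members (72.7%, 67.1% to 77.8%). Below that level were 7 DMSO members and 77 DAB members (27.3%, 22.2% to 32.9%), among them 3 and 47 below 10 per 10000. B cell-like barcodes (5 or more UMIs of Cd79a and Cd79b together), which should lack these genes, had a median of 2.73 per 10000 in DMSO and 5.39 in DAB. Of the populations compared below, Ly6g-positive secondary granule cells had medians of 2048 in DMSO and 1611 in DAB. Ly6g-negative Csf3r-positive cells had medians of 18.9 and 56.0, so a value under 100 alone does not settle what a cell is. The level of 100 was set after the values were seen, and 3 DMSO and 18 DAB members lay between 50 and 200. For these 77 DAB members the name neutrophils was therefore not borne out by the calprotectin genes, and the main results below are given for all members and again for the members at or above 100, called S100a8/9-high.

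**Figure D2:**
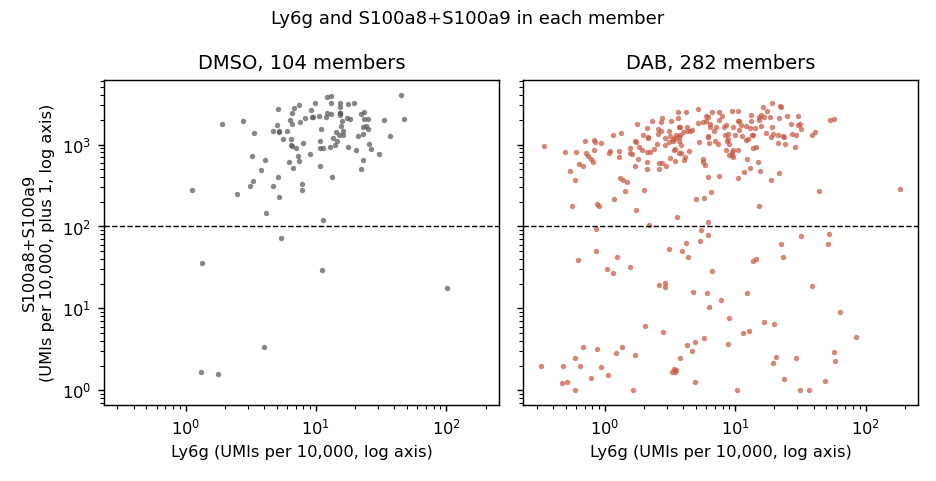
Each point is 1 member, with its Ly6g UMIs per 10000 on the x axis and its S100a8 plus S100a9 UMIs per 10000 (plus 1) on the y axis, both logarithmic, and a dashed line at 100. Below the line lie 7 of 104 DMSO members and 77 of 282 DAB members, at low and high Ly6g alike in DAB.

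Some S100a8/9-low members of the DAB library carried RNA of genes that mark other myeloid cells, and some carried neutrophil genes. They were deeper than the S100a8/9-high members (median 15026 against 10310 UMIs), and the UMI limits below were not scaled for depth. Adgre1, which encodes F4/80, a surface protein of macrophages and eosinophils, was present at 2 or more UMIs in 60 of the 77 (77.9%) and in 31 of the 205 S100a8/9-high members (15.1%). Cd200r3, a receptor of basophils and mast cells, was present at 2 or more UMIs in 40 of 77 (51.9%) and in 5 of 205 (2.44%). Prg2, which encodes the eosinophil major basic protein, was at 1378 CPM (counts per 1000000 UMIs of the summed cells) in the low members and at 8.61 in the high members of that library. Few cells carried this sum, with 5 or more Prg2 UMIs in 13 of the 77 low members (16.9%) and a median of 0. Fn1, a gene of monocytes and macrophages, was at 2 or more UMIs in 41 low members (53.2%) and 44 high members (21.5%), and Csf1r, the receptor for their growth factor, in 22 (28.6%) and 70 (34.1%). MHC class II genes were at 3 or more UMIs in 19 low members (24.7%) and 38 high members (18.5%). Of the defining markers, Cxcr2 was at 2 or more UMIs in 26 low members (33.8%) and 117 high members (57.1%), and Retnlg at 3 or more in 22 (28.6%) and 134 (65.4%). The basophil proteases Mcpt8 and Prss34 were together at 3 or more UMIs in 5 low members and in 0 high members. Ly6g, which the rule required, had a median of 5 UMIs in the low DAB members and a maximum of 178. Over all kept barcodes, 81 of 723 DAB barcodes with 3 or more Cd200r3 UMIs (11.2%, 9.0% to 13.7%) had 2 or more Ly6g UMIs, 39 of them members, against 5 of 192 B cell-like barcodes (2.60%, 0.851% to 5.97%), at median depths of 23802 and 5827.5 UMIs. At a greater median depth of 29386 UMIs, 17 of 736 DAB barcodes with 50 or more H2-Aa and H2-Ab1 UMIs (2.31%, 1.35% to 3.67%) had them. In the DMSO library 9 of 189 barcodes with 3 or more Cd200r3 UMIs did (4.76%, 2.20% to 8.85%) and 27 of 681 with 50 or more H2-Aa and H2-Ab1 UMIs (3.96%, 2.63% to 5.72%), at median depths of 21348 and 21131 UMIs, so that the intervals overlapped there.

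Single barcodes weighed on some sums. One DAB member held 726 Ly6g UMIs, 20.1% of the Ly6g UMIs of all DAB members. One DMSO member held all 8883 Igkv3-2, 1002 Ighg2c, 810 Igkc and 114 Jchain UMIs of the DMSO members, immunoglobulin genes of the kind a plasma cell makes. It supplied 7 of the 12 genes with the smallest DAB to DMSO ratio (with Ighv1-50, Ighv1-59 and Gm30211), and Ccl22 came from 1 other DMSO member. These 8 genes are left out of the account of the lowest ratios below.

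The other markers of other cell types were counted list by list. Of the 6 basophil and mast cell markers, 5 were at 0 in DMSO members and 0 in DAB members, with a sum of 14.7 and 194 CPM and Cd200r3 as the most abundant gene in both. Of the 6 eosinophil markers, 3 were at 0 in DMSO and 1 (Il5ra) in DAB, with sums of 66.9 and 490 CPM and Prg2 as the most abundant. Among S100a8/9-high members these sums were 1.87 and 17.9 CPM for basophils and mast cells and 7.49 and 14.1 CPM for eosinophils. The 10 monocyte markers summed to 1120 CPM in DMSO members and 3632 in DAB members, with Spp1 as the most abundant gene at 498 and 2690 CPM, Ms4a6c at 0 in DMSO, and 725 and 3460 CPM among S100a8/9-high members. MHC class II markers summed to 1142 and 1823 CPM with none of the 5 at 0 and Cd74 as the most abundant, and 1 DMSO member held 45.7% of the DMSO sum. Progenitor markers (Cd34, Kit, Flt3 and the primary granule genes Mpo, Elane and Prtn3) summed to 75.1 and 267 CPM, with Cd34 and Flt3 at 0 in DMSO and Prtn3 as the most abundant. The macrophage genes C1qa and Mrc1 were at 0 in both libraries, and that list summed to 13.1 and 10.1 CPM with C1qb as the most abundant, in 4 DMSO and 11 DAB members, 1 of which held 72.7% of the DAB UMIs. B cell markers summed to 22.8 and 19.0 CPM, with 4 of 6 at 0 in DMSO and Cd79a as the most abundant. T and NK cell markers summed to 8.16 and 0.687 CPM, and erythroid markers to 0 and 2.06 CPM. The part of these cells in the ratios below was not tested.

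The 5 defining markers were present in both libraries. S100a8 stood at 55030 CPM in DMSO members and 31405 in DAB members, a log2 ratio of -0.81 (-0.83 to -0.79), and at -0.42 among S100a8/9-high members. S100a9 stood at 68452 and 33937 CPM, a log2 ratio of -1.01 (-1.03 to -1.0), and at -0.63 among S100a8/9-high members. The S100a8/9-high members were chosen on these 2 genes, so that their ratios for S100a8 and S100a9 describe the choice as well. Cxcr2, the receptor for the chemokines Cxcl1 and Cxcl2, stood at 384 and 148 CPM, a log2 ratio of -1.38 (-1.60 to -1.16) and of -1.22 among S100a8/9-high members. Retnlg, a secreted protein of late neutrophils, stood at 2603 and 3976 CPM, a log2 ratio of 0.61 (0.54 to 0.69), and at 0.81 among S100a8/9-high members. The markers thus did not move together, with Retnlg higher and Cxcr2 lower in DAB in the summed CPM. For Retnlg the median over all members was 6.89 per 10000 UMIs in DMSO and 6.51 in DAB, so the typical member showed no rise. Among S100a8/9-high members the Retnlg median was 8.80 in DMSO and 24.6 in DAB. The Cxcr2 median over all members was 4.05 and 1.15 per 10000 UMIs. Ly6g itself, a gene of the rule, stood at 1014 CPM in DMSO and 828 CPM in DAB, and its median over members was 10.7 and 5.17 per 10000 UMIs. Its log2 ratio of the sums ran from -0.44 to 0.52 over the alternatives.

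Over all genes with 50 or more UMIs summed over the members of both libraries, the rule genes left out, 1083 of 7250 (14.9%) were 2-fold or more higher in DAB and 563 (7.77%) 2-fold or more lower, with a median log2 ratio of 0.05. With a minimum of 20 UMIs, the setting for the gene lists, 16.6% of 9381 genes were higher and 8.88% lower by 2-fold. Since DAB members held more UMIs, genes could pass this minimum through DAB alone, and 246 of them were at 0 in DMSO members and 6 in DAB members. With an interval off 0 as well, 942 were higher and 708 lower. Among S100a8/9-high members these shares were 16.9% and 9.03% of 8587 genes.

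The highest ratios were led by genes that a few UMIs marked in DMSO. Cox6a2, a muscle-type subunit of cytochrome oxidase, had 1 UMI in DMSO members and 434 in 85 DAB members, a log2 ratio of 5.93 (3.44 to 11.23). The surface protein gene Thy1 had 1 and 343 UMIs (log2 ratio 5.59, 3.10 to 10.90), and Itgb7, an integrin chain, 1 and 302 UMIs (5.4, 2.92 to 10.71). Among S100a8/9-high members the log2 ratios of Thy1 and Itgb7 were 5.67 and 4.42. Hdc, the enzyme that makes histamine, stood at 6.53 and 199 CPM (4.93, 3.57 to 6.81). Among S100a8/9-high members Hdc stood at 5.62 and 48.6 CPM, a log2 ratio of 3.11. Myl10 and Fgl2 had log2 ratios of 4.10 and 3.98, and of 4.31 and 2.90 among S100a8/9-high members. Akr1c18 had 0 UMIs in DMSO and 329 in 18 DAB members, at least 3.94 on the log2 scale, a bound that sets the DMSO level to 3 UMIs over the members. Of these 329 UMIs, 325 lay in S100a8/9-low members and 4 in S100a8/9-high members. The other 5 of these 12 genes belong to the amino acid response (Psat1, Phgdh, Pycr1, Stc2) or the primary granules (Elane).

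Among the 12 lowest, the genes not held entirely or almost entirely by 1 barcode were Camp, Olfm4, Csf3r and Fos. Csf3r encodes the receptor for G-CSF, the growth factor of neutrophils. It stood at 240 CPM in DMSO members and 17.9 in DAB members, a log2 ratio of -3.75 (-4.16 to -3.34) and of -3.53 among S100a8/9-high members. At 1000 UMIs per barcode, 28.8% of DMSO members (20.4% to 38.6%) and 2.48% of DAB members (1.0% to 5.05%) had a Csf3r UMI, against 59.6% and 18.1% without thinning. B cell-like barcodes, which should lack Csf3r, had one in 0 of 100 and 0 of 192 at that depth, which allows shares of up to 3.0% and 1.56% by a limit of 3 cells and 3.62% and 1.90% by the exact interval, and in 3% and 4.17% without thinning, at median depths of 5024.5 and 5827.5 UMIs. The DMSO share of members lay above these limits, and the interval of the DAB share (7 of 282 members) overlapped them. Fos, an immediate early transcription factor, stood at 53.9 and 4.81 CPM, a log2 ratio of -3.49 (-4.35 to -2.65).

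Secondary granule genes other than those of the rule were lower in DAB, in 8 of the 9 genes tested. By 2-fold or more, 4 were lower (Camp, Chil3, Olfm4, Hp) and 1, Itgb2l, higher, with a median of -0.82 (order-statistic interval -4.42 to -0.29) against 0.06 for all genes tested, and of -0.81 among S100a8/9-high members. Lcn2, a siderophore-binding protein, stood at 5237 and 2964 CPM. Chil3, a chitinase-like lectin, stood at 8415 and 2132 CPM, a log2 ratio of -1.98 (-2.03 to -1.93). Camp stood at 263 and 9.61 CPM, a log2 ratio of -4.77 (-5.30 to -4.27), and 40.4% of its DMSO UMIs came from 1 member. Olfm4, a matrix glycoprotein of a subset of neutrophils, had 66 UMIs in 4 DMSO members, 57.6% of them in 1, and 22 in DAB members. The rule limits Ltf and Ngp, whose RNA is made at the same stage as these genes, so the list is not free of the rule.

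Primary granule genes were higher in DAB, in 6 of 7 genes by 2-fold or more, with a median of 2.17 (-0.22 to 5.17) and of 2.46 among S100a8/9-high members, where 5 passed 2-fold. With Ly6g also at or above 3 per 10000 UMIs, an alternative chosen after seeing the data, that median was 0.28. Prtn3 (proteinase 3) stood at 58.8 and 178 CPM, a log2 ratio of 1.60 (1.11 to 2.12). Elane had 1 and 256 UMIs (5.17, 2.67 to 10.47), and 28.5% of the DAB UMIs came from 1 member. Ctsc, the protease that activates the others, was the exception at 165 and 141 CPM. The list summed to 3 or more UMIs in 19 of 104 DMSO and 122 of 282 DAB members, and 10 DAB members held 49.5% of its DAB UMIs. Per 10000 UMIs its median was 1.61 in DMSO members and 1.66 in DAB members.

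Proliferation genes were higher in DAB throughout. All 18 had log2 ratios above 0 and 17 were 2-fold or more higher in DAB, with a median of 1.95 (1.82 to 2.75) and of 2.43 among S100a8/9-high members, where all 18 passed 2-fold. The median was 0.74 with members taken at 1 or more Ly6g UMIs, and 1.07 with Ly6g also at or above 3 per 10000. Top2a, a topoisomerase of dividing cells, stood at 26.1 and 92.0 CPM, and Ube2c, a ubiquitin-conjugating enzyme of mitosis, at 42.4 and 128 CPM. Mki67 was the exception in all members at 40.8 and 65.7 CPM, a log2 ratio of 0.69 (0.10 to 1.34). The 18 genes summed to 3 or more UMIs in 3 DMSO members (2.88%) and 66 DAB members (23.4%), at the unequal depths given above, and the median member of either library had none. Of the 127 DMSO UMIs, 40.9% came from 1 member, and of the 3483 DAB UMIs, 53.8% came from 10 members.

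Genes of the amino acid response had log2 ratios above 0 in 30 of 36 tested, and 23 were 2-fold or more higher in DAB and 1 lower, with a median of 1.80 (0.71 to 2.53) against 0.06 for all genes tested, and of 1.53 among S100a8/9-high members, where 24 were 2-fold or more higher. In this response the kinase GCN2 senses uncharged tRNA, translation of the transcription factor ATF4 goes up, and ATF4 turns on genes that make, import and charge amino acids. Asns, asparagine synthetase, stood at 22.8 and 114 CPM, a log2 ratio of 2.32 (1.56 to 3.21), and of 3.06 (2.12 to 4.20) among S100a8/9-high members. Its RNA was seen in 8 of 104 DMSO members and 153 of 282 DAB members, and at 1000 UMIs per barcode in 2.88% (0.599% to 8.20%) and 7.80% (4.95% to 11.6%), against 2% and 2.60% of B cell-like barcodes. The intervals of the libraries overlapped. Atf4 itself stood at 158 and 259 CPM, a log2 ratio of 0.71 (0.41 to 1.03), while Atf5, a related factor, stood at 21.2 and 222 CPM (3.39, 2.61 to 4.30). The serine pathway enzymes Phgdh, Psat1 and Psph had 2, 1 and 1 UMIs in DMSO members and 393, 338 and 172 in DAB members. Among transporters, Slc3a2, the common heavy chain, had a log2 ratio of 0.61 and its partner Slc7a5 of 2.54 (1.81 to 3.39). The 6 genes below 0 were Eif4ebp1, Nupr1, Sesn2, Ppp1r15a, Atf3 and Ddit4, the last at 263 and 125 CPM (-1.07, -1.33 to -0.81).

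The promoters of 3 of these genes are shown because they had the highest ratios among those that hold the letters TGATGNAA, a C/EBP-ATF response element form, on either strand. The windows reach from 250 bases before to 50 after the RefSeq start site (GRCm38.p6), run 5′ to 3′ on the strand of the gene, and carry the match in capitals (on the other strand it reads TTNCATCA). Pycr1 (chr11:120643699-120643998, minus strand), an enzyme of proline synthesis, had the match 103 bases before the start. Trib3 (chr2:152344011-152344310, minus strand), a pseudokinase, had it 14 bases after the start, and Aars (chr8:111033592-111033891, plus strand), alanyl-tRNA synthetase, had a pair, 112 before and 9 after.
Pycr1: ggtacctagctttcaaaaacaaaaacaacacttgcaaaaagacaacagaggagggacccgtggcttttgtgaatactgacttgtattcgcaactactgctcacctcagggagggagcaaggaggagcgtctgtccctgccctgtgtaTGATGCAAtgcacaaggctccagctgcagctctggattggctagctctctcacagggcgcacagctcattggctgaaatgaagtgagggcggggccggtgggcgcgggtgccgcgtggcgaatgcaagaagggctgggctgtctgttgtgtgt
Trib3: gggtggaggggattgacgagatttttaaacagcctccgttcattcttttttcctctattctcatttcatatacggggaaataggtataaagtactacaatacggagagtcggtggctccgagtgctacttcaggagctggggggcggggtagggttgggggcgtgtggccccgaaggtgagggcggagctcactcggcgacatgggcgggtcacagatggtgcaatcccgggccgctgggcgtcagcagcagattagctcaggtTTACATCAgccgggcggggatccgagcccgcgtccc
Aars: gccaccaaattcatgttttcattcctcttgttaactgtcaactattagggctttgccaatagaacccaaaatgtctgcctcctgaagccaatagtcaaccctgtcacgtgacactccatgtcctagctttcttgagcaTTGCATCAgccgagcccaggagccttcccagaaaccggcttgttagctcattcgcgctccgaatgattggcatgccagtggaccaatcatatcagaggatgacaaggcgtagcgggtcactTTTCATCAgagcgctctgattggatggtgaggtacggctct
Their log2 ratios in members were 4.01 (2.14 to 7.06), 3.43 (2.29 to 4.88) and 3.17 (2.03 to 4.62). The letters were present in 10 of 35 promoters, from 31 genes of the list (28.6%), and in 1304 of 32851 promoters in all (3.97%). The list holds genes chosen for this response, so its share describes the list. Asns held them as TGATGAAA, 23 bases before its start. A match is a description of the letters only, and binding of ATF4 was not measured here.

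Genes of the unfolded protein response, which acts on misfolded protein in the endoplasmic reticulum, had log2 ratios above 0 in 15 of 16 and were 2-fold or more higher in DAB in 9, with a median of 1.08 (0.36 to 1.84) and of 1.36 among S100a8/9-high members. The chaperone genes Hspa5 and Hsp90b1 stood at 152 and 449 CPM (1.57, 1.27 to 1.88) and at 304 and 623 CPM (1.04, 0.82 to 1.26). Calr, calreticulin, stood at 97.9 and 364 CPM (1.89, 1.52 to 2.29). Only Dnajb9 of the 16 had a ratio below 0, at -0.63 (-1.29 to 0.09).

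**Figure D3:**
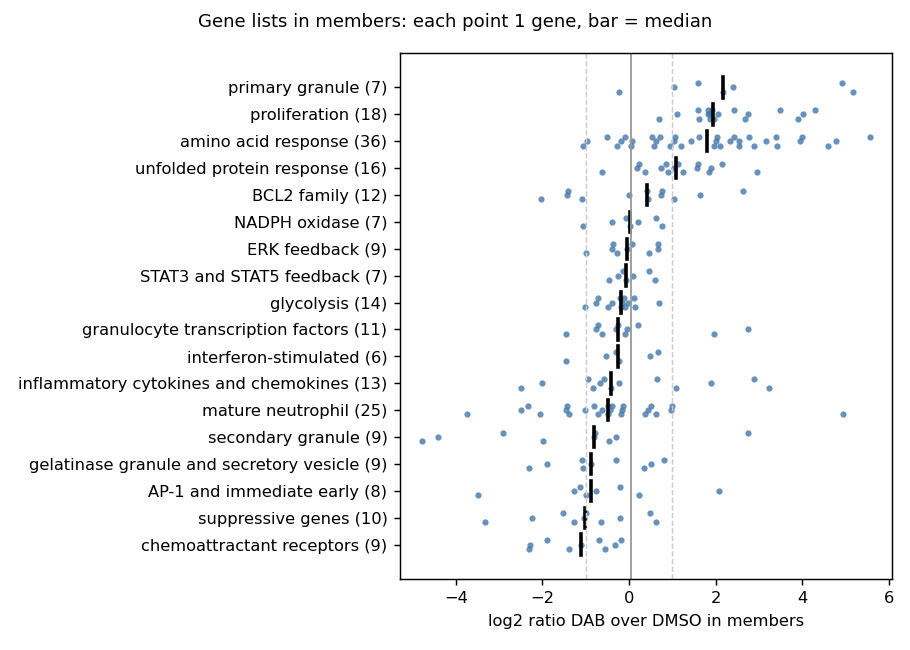
Log2 ratio of DAB over DMSO in members for each gene tested of the fixed lists (number of genes in brackets), with a bar at the median of each list, a solid line at the median of all genes tested and dashed lines at 2-fold. Primary granule, proliferation, amino acid response and unfolded protein response lists have medians above 1, and suppressive and chemoattractant receptor lists below -1.

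Chemoattractant receptors, by which neutrophils follow signals into tissue, had ratios below 0 in all 9 genes and 2-fold or more lower in 5, with a median of -1.11 (-2.29 to -0.33) and of -1.19 among S100a8/9-high members. The formyl peptide receptor genes Fpr1 and Fpr2 stood at 165 and 44.6 CPM (-1.89, -2.24 to -1.52) and at 94.7 and 19.2 CPM (-2.30, -2.80 to -1.79). Ccr1 and the complement receptor gene C5ar1 differed less, at -0.55 (-0.77 to -0.33) and -0.33 (-0.59 to -0.05). The mature neutrophil list had 8 of 25 genes 2-fold or more lower and 2 higher, with a median of -0.48 (-1.01 to -0.15) and of -0.42 among S100a8/9-high members. Beside Csf3r and Cxcr2, the lower genes were Il1b (73.4 and 13 CPM), Lrg1, Wfdc17, Wfdc21, Mxd1 and S100a9, and the higher were Hdc and Ifitm1 (4787 and 9582 CPM, 1.0, 0.95 to 1.06). Hdc stood at 199 CPM in all DAB members but at 48.6 CPM in the S100a8/9-high DAB members.

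The gelatinase list had a median of -0.87 (-1.88 to 0.51), and of -0.22 when members of both libraries were weighted to the same mix of Ly6g levels. Mmp9 stood at 872 and 409 CPM (-1.09, -1.23 to -0.95), and its ratio was -0.33 with that weighting and so no longer past 2-fold. On the other side of 0 were Adam8, a metalloprotease, at 454 and 799 CPM (0.82) and Itgam, the CD11b gene, at 508 and 722 CPM (0.51, 0.34 to 0.68). The NADPH oxidase list had a median of 0.03, and its catalytic subunit gene Cybb alone passed 2-fold, at 240 and 114 CPM (-1.07, -1.34 to -0.80). In the Ly6 family, Ly6c2 stood at 645 and 1589 CPM (1.30, 1.15 to 1.45), Ly6e at 731 and 1746 CPM (1.26) and Ly6i at 127 and 22.7 CPM (-2.49). Ly6c2 encodes an antigen by which monocytic MDSC are recognised, and the study gated PMN-MDSC as positive for both Ly6C and Ly6G. At 1000 UMIs per barcode Ly6c2 was seen in 37.5% of DMSO members (28.2% to 47.5%) and 67.7% of DAB members (61.9% to 73.2%). The shares were 56.9% and 88.8% in the Ly6g-positive secondary granule cells described below, and 4% and 5.21% in B cell-like barcodes. Of the granulocyte transcription factors, Cebpb stood at 1688 and 1097 CPM (-0.62), and Cebpe, a factor of the secondary granule stage, at 29.4 and 115 CPM (1.96, 1.29 to 2.73). At 1000 UMIs per barcode Cebpe was seen in 5.77% of DMSO members (2.15% to 12.1%) and 7.45% of DAB members (4.67% to 11.2%). These intervals overlapped.

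Genes by which MDSC hold back T cells had 5 of 10 lower and 0 higher by 2-fold, with a median of -1.02 (-2.25 to 0.49) and of -0.97 among S100a8/9-high members. Nos2, the inducible nitric oxide synthase, stood at 55.5 and 5.49 CPM (-3.34, -4.15 to -2.54), and Cd274, the PD-L1 gene, at 153 and 52.9 CPM (-1.54, -1.89 to -1.18). Tgfb1 was on the other side of 0, at 307 and 430 CPM (0.49). Il10 and Ido1 had no UMI in members of either library.

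Cytokine and chemokine genes were divided. The neutrophil-attracting chemokines Cxcl3 and Cxcl2 stood at 274 and 2034 CPM (2.89, 2.67 to 3.12) and at 395 and 843 CPM (1.09, 0.91 to 1.29), and Ccl4 at 32.6 and 306 CPM (3.23). Il1rn, the interleukin-1 receptor antagonist, stood at 485 and 273 CPM (-0.83, -1.01 to -0.64), and the list as a whole had 4 of 13 genes 2-fold or more higher, 2 lower and a median of -0.41. That median lay on both sides of 0 over the alternatives, from -0.62 to 0.26. The AP-1 list had a median of -0.88 (-3.49 to 2.07), with Junb at 666 and 276 CPM (-1.27) and Jun at 129 and 58.6 CPM (-1.14). ERK feedback genes, which read out the pathway downstream of BRAF, had a median of -0.04 (-0.39 to 0.67), with Dusp6 at 49.0 and 78.0 CPM (0.67, 0.13 to 1.26) and Ier3 at 927 and 463 CPM (-1.0). STAT feedback, interferon-stimulated and glycolysis lists had medians of -0.07, -0.26 and -0.17, and by 2-fold or more 0, 1 and 1 of their genes were lower and 0 higher. In the BCL2 family, with a median of 0.42, 3 of 12 genes were 2-fold or more higher (Bcl2, Bcl2a1d and Bak1) and 4 lower (Mcl1, Bcl2l11, Bbc3 and Pmaip1). The survival gene Bcl2 stood at 6.53 and 40.7 CPM (2.64, 1.26 to 4.53), the survival gene Mcl1 at 814 and 302 CPM (-1.43, -1.58 to -1.28) and the death gene Bcl2l11 at 83.2 and 20.4 CPM (-2.03). Bcl2a1a, Bcl2a1b and Bcl2a1d are near-identical copies and their split is uncertain. Cd9, a tetraspanin, stood at 641 and 575 CPM (-0.16).

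Members were compared with 2 populations that passed the same limits except for Ly6g or for Ltf and Ngp. The barcodes left out by Car4 alone were not compared here. Ly6g-positive secondary granule cells (490 DMSO, 196 DAB) had 20 or more Ltf and Ngp UMIs per 10000, and Ly6g-negative Csf3r-positive cells (417 and 374) had 0 Ly6g and 2 or more Csf3r UMIs. Against the secondary granule cells, 71 of 5987 genes were 2-fold or more higher in members in both libraries and 60 lower. Higher in members were Fn1, fibronectin (84.9 and 452 CPM against 4.37 and 58.4), and Spp1 (498 and 2690 against 148 and 983). So were Adgre1 (104 and 220 against 26.2 and 79.3) and Ly6a (89.8 and 145 CPM against 15 and 28.7). The chemokine Ccl9 (295 and 1097 against 45.9 and 244) and S100a4 (93.0 and 177 against 30.1 and 41.3) were higher as well. Lower were Camp, Itgb2l, Chil1 and Cd177 (455 and 371 against 1312 and 1858). Camp, Itgb2l and Cd177 belong to the secondary granule list, which is not free of the limit on Ltf and Ngp. Among S100a8/9-high members 48 genes were higher and 53 lower, with Ly6a, Spp1 and Clec4n (249 and 224 against 50.0 and 68.6 CPM) among the higher. Fn1 and Adgre1 were not among the leading higher genes there. In DMSO, Adgre1 was at 2 or more UMIs in 4 of 7 S100a8/9-low and 5 of 97 S100a8/9-high members. Fn1 was at that level in 3 of 7 and 3 of 97, and the DAB shares are given above. Against the Csf3r-positive cells, 38 of 5308 genes were higher and 134 lower, with Retnlg, Cd177, Ly6c2 and Lcn2 (5237 and 2964 against 690 and 682 CPM) among the higher, and Prtn3 and Elane among the lower. Elane stood at 1.63 and 58.6 CPM in members against 191 and 624.

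**Figure D4:**
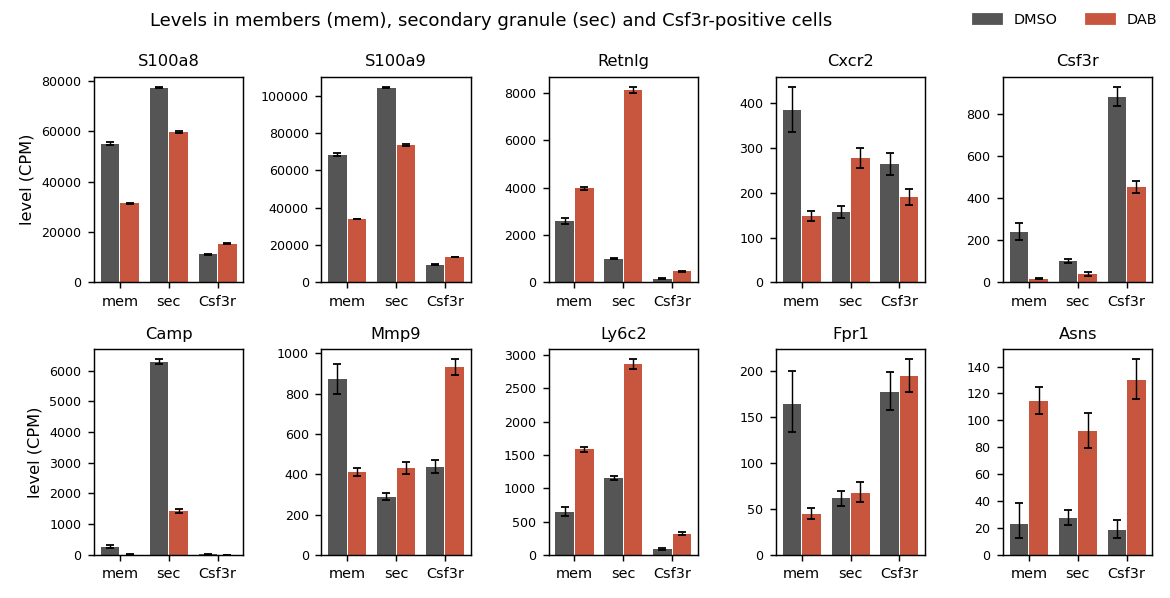
Levels in CPM of 10 genes in members (mem), Ly6g-positive secondary granule cells (sec) and Ly6g-negative Csf3r-positive cells (Csf3r), DMSO in grey and DAB in red, with exact Poisson 95% intervals of the summed UMIs as error bars and an own axis for each gene. Cxcr2 and Mmp9 are lower in DAB in members and higher in DAB in the secondary granule cells. Asns is higher in DAB in all 3, and Csf3r is lower in DAB in all 3. The Csf3r-positive cells were chosen on Csf3r, so their Csf3r level describes the choice.

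The ratio of DAB over DMSO was compared with the same ratio in these populations, without a test, since each rests on the same pair of libraries. Amino acid response genes had medians of 1.80 in members, 1.49 in secondary granule cells and 2.23 in Csf3r-positive cells, and unfolded protein response genes 1.08, 0.65 and 0.75. Proliferation genes had medians of 1.95, 0.44 and 0.77, and -0.17 in all other barcodes. Chemoattractant receptors had medians of -1.11, 0.14 and -0.47, and mature neutrophil genes -0.48, 0.33 and 0.30. Cxcr2 had a log2 ratio of -1.38 in members and of 0.82 (0.66 to 0.99) in secondary granule cells, where its level was 157 CPM in DMSO and 277 in DAB. Csf3r had ratios of -3.75, -1.32 (-1.67 to -0.98) and, where the rule of the population used it, -0.96. Retnlg had ratios of 0.61, 3.02 (2.97 to 3.07) and 1.60 (1.41 to 1.80), with DMSO members already at 2603 CPM against 1004 and 154 in the DMSO cells of the other populations.

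**Figure D5:**
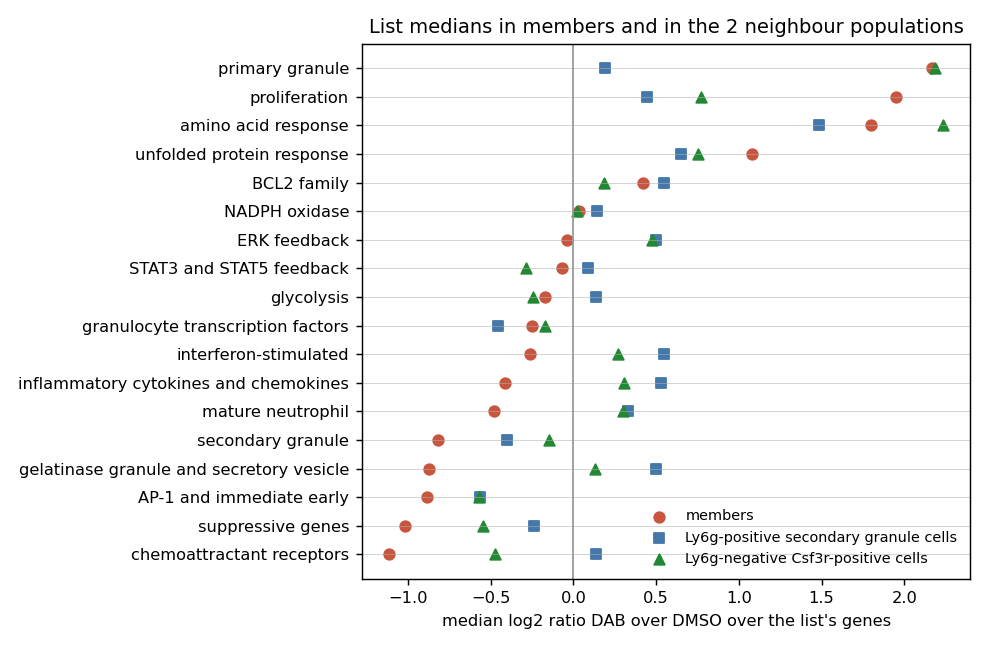
Median log2 ratio of DAB over DMSO of each list in members (circles), Ly6g-positive secondary granule cells (squares) and Ly6g-negative Csf3r-positive cells (triangles). Amino acid response medians lie between 1.49 and 2.23 in all 3, while chemoattractant receptor, gelatinase and mature neutrophil medians are below 0 in members and above 0 in secondary granule cells.

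Against all other barcodes of the same library, the 12 genes that led in both libraries were Retnlg, Retnla, Slc2a3, Pglyrp1, Slpi, Cd177, S100a9, Lcn2, Ifi27l2a, Ckap4, Ccl6 and Ly6c2. These describe the selection and were not tested. Retnlg was 2.88 on the log2 scale above the other barcodes in DMSO and 1.97 in DAB. Retnla, a resistin-like protein, stood at 963 CPM in DMSO members and 5695 in DAB members, but few members carried it, with a median of 0 in both libraries and 39.0% of the DMSO UMIs in 1 member. Among S100a8/9-high members it stood at 249 and 1563 CPM, and the 90th percentile of these DAB members was 4.01 per 10000 UMIs. The glucose transporter gene Slc2a3 stood at 568 and 282 CPM.

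The leading principal component of the log-normalised counts over the members of both libraries, genes of the rule left out, took 7.56% of the variance over 9009 genes. At one end lay S100a9, S100a8, Wfdc21, Retnlg, Mmp8 and Mmp9, and at the other ribosomal protein genes such as Rps2 and Rplp1, with Cstdc4, a stefin A gene that the rule did not use and whose reads are hard to tell from those of its copies. The median member lay at 10.4 in DMSO and -2.99 in DAB. On the ribosomal side of 0 were 12 of 104 DMSO members (11.5%) and 164 of 282 DAB members (58.2%), of which 72 were S100a8/9-low and 92 S100a8/9-high. Depth moved with this axis, with median UMIs of 11548 below 0 and 4696 above 0 in DMSO, and 18122 and 7553 in DAB, and its part was not tested.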

How the data were processed

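Bone marrow MDSC were measured as 1 DAB and 1 DMSO single-cell library. Per the labels and methods, the authors aligned reads to mm10 with Cell Ranger 7.0.0 and deposited unnormalized UMI counts per gene and barcode, with no cell annotation.  From the deposited counts, barcodes with 1000 or more UMIs and at most 10% mitochondrial UMIs were kept (9621 DMSO, 11414 DAB), and the median kept barcode had 8337 and 10587 UMIs. The 199 DMSO and 147 DAB barcodes under 1000 UMIs, and 35 and 70 above the mitochondrial limit, were left out.

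UMIs were summed over members per library and scaled to counts per 1000000 (CPM) of their own total (612722 DMSO, 4369329 DAB). Ratios carry exact conditional binomial 95% intervals, CPM exact Poisson intervals and shares exact Clopper-Pearson intervals, all for counting error only. A level at 0 was set to 3 UMIs. Doublets were scored with 2 simulated doublets per barcode and 0.8% expected per 1000 barcodes, and were kept except in 1 alternative. No test was made with 1 library per group. Intervals were tested only on simulated Poisson and binomial counts, the model they assume, so their cover under spread between cells was not tested. Python 3.11.15, numpy 2.4.6, scipy 1.17.1, pandas 2.3.3 and scikit-learn 1.9.0 were used.

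Members, lists and rules were chosen with earlier results of these data known. Genes named were the 12 largest and 12 smallest ratios (50 CPM in a library, 50 UMIs, interval off 0), the 12 leading genes over other barcodes (200 CPM), 2 to 4 genes per list by level, the markers and genes of the rule, genes the study named, and at most 3 promoters. Other genes, in each list and against the neighbour populations, were named after their values were seen. Settings for Ly6g, Ltf and Ngp, depth, mitochondrial share, doublets, scaling, gene minimum and Ly6g mix were varied. Gene names and positions came from the files and the GRCm38 annotation. Some genes are not reported here by name and stay in the counts and medians.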

Additional observations from a re-analysis of the deposited data

Results flagged for a closer look

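Mmp9 had a log2 ratio of -1.09 in members and of 1.09 in Ly6g-negative Csf3r-positive cells, past 2-fold in opposite directions. In members its ratio ran from -1.18 to -0.33 over the alternatives, so that it did not stay past 2-fold. Ccl22 had a log2 ratio of -3.63 in members, where 1 barcode held all 52 DMSO UMIs, and of 1.09 in Ly6g-positive secondary granule cells. With 1 library per group these differences between populations were not tested.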

How the results depend on the processing

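No paired analysis was possible because each group had 1 library. The log2 ratio of shares, 1.19 as reported, was 0.50 when the rule was applied after thinning to 1000 UMIs, and, under 2 alternatives chosen after seeing the data, 0.83 with S100a8 and S100a9 at or above 100 per 10000 and 0.72 with Ly6g also at or above 3 per 10000. Genes 2-fold higher and lower numbered 371 and 184 with a minimum of 200 UMIs, which tests fewer genes, and 470 and 349 with Ly6g at or above 3 per 10000 (97 DMSO and 189 DAB members), where the cause was not tested. The proliferation median was 0.74 with Ly6g at 1 or more UMIs, 1.23 with 4 or more, 1.43 with Ltf and Ngp below 40, 1.59 as a mean over cells, 1.25 with the same mix of Ly6g, and 1.07 with Ly6g at or above 3 per 10000. It was above 0 in each. Of 252 list medians recomputed, 246 stayed within their interval, which is wide for short lists. The primary granule median ran from 0.28 (Ly6g at or above 3 per 10000) to 2.46 and the cytokine and chemokine median from -0.62 to 0.26. Other medians past 2-fold as reported came inside it under some alternatives: chemoattractant receptors (-1.22 to -0.84), suppressive genes (-1.20 to -0.72) and unfolded protein response (0.77 to 1.63). The gelatinase median ran from -1.09 to -0.22. Single genes past 2-fold as reported that came inside it included Akr1c18 (0.11 to 4.32), Ighv1-50 (-12.2 to -0.46) and Mmp9 (-1.18 to -0.33). Cxcr2, S100a9, Slc2a3 and Ly6c2 came inside it as well, while Ly6g, Cd9 and Cd177, none past 2-fold, lay on both sides of 0. Of 636 values of 47 named genes none past 2-fold reversed, while 153 moved beyond their interval. Leaving out replicates was not possible. The depth of DMSO members, 612722 UMIs in 104 barcodes, limits every gene with few DMSO UMIs.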

Other observations

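Gm42418, a locus that overlaps ribosomal RNA repeat sequence, had a median of 274 UMIs per 10000 in DMSO members and 141 in DAB members. Of the DMSO barcodes under 1000 UMIs, 2 met the rest of the rule, and 0 of the DAB barcodes did.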
